A study of Caenorhabditis elegans with 8 samples.

Results

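The 4 replicate 3 libraries of this RNA-seq series were compared with its 4 replicate 1 libraries, pairing the libraries within each genotype and treatment. The members were chosen by the replicate number at the end of the sample titles, so 4 of 8 libraries are replicate 3 and the other 4 are replicate 1. The conditions were nhr-49(nr2041) null mutant worms kept with tBOOH at 7.5 mM (4 hr), untreated nhr-49(nr2041) worms, wild-type N2 worms exposed in the same way, and untreated N2 worms. tBOOH (tert-butyl hydroperoxide) is an organic peroxide, and NHR-49 is a nuclear hormone receptor that regulates lipid metabolism. All worms were labelled as L4, the last larval stage, and were grown on OP50 bacteria, and the mutant had been backcrossed to N2. The labels do not say whether a replicate number stands for a culture, a day or a preparation, so the tests measure the spread between these libraries only.

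In hermaphrodites the L4 stage ends with the last moult. Around that time the germline switches from making sperm to making oocytes, and the intestine of the young adult starts to make vitellogenins, the yolk proteins that growing oocytes take up through the receptor RME-2. Cuticle collagens are made in waves within each moulting cycle, and some are made only for the adult cuticle. Transcript levels of these genes are therefore commonly read as markers of developmental stage. In whole worms, fewer cells of a type and less RNA per cell cannot be told apart.

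The libraries held 4112931, 2634620, 4802744 and 5468999 counts in replicate 3, against 4420382, 2157766, 5852727 and 4758499 in replicate 1, for tBOOH-treated nhr-49, untreated nhr-49, tBOOH-treated N2 and untreated N2 worms. A floor of 3 counts stands for 0.508 to 1.55 CPM (counts relative to library size, with the sizes scaled by TMM factors, which allow for a few genes taking a large share of counts), and covers counting error only. Log2 CPM of the paired libraries correlated across genes at r = 0.924 in tBOOH-treated nhr-49, 0.893 in untreated nhr-49, 0.967 in tBOOH-treated N2 and 0.971 in untreated N2 worms. The replicate 3 libraries of nhr-49 thus stood further from their partners than those of N2. Counts on the nhr-49 gene itself were 133 and 97 in the mutant replicate 3 libraries and 140 and 41 in the mutant replicate 1 libraries, or 21.2 to 36.1 CPM, against 66.1 to 110 CPM in the 4 N2 libraries. Vitellogenin messages were present in every library, all labelled as L4, and were least in the nhr-49 replicate 3 libraries. The 6 vitellogenin genes took 0.416% (95% Wilson interval 0.41% to 0.422%) and 0.085% (0.0815% to 0.0886%) of the counts there with and without tBOOH. These intervals cover counting error only, since amplified reads are not independent molecules. The vitellogenin share was 4.46% and 2.25% in the N2 replicate 3 libraries with and without tBOOH, and 4.7% to 8.65% in the replicate 1 libraries, so every replicate 3 library lay below every replicate 1 library.

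The genotypes differed in the paired fits, which used edgeR's quasi-likelihood test on 14334 genes with a call at a Benjamini-Hochberg adjusted p under 0.05. In nhr-49 worms 386 genes were called, 87 higher in replicate 3 (0.607% of genes tested) and 299 lower (2.09%). Every one of them moved the same way in both library pairs. The call itself largely sets that agreement, as pairs that disagree raise the spread in the fit. In N2 worms 0 genes were called (0% of genes tested), with 386 genes at an unadjusted p under 0.05. Over all 4 conditions together 0 genes were called (0%), with 1706 genes at an unadjusted p under 0.05 and a smallest adjusted p of 0.142. DESeq2 called 0 genes in N2, 227 over the 4 conditions and 564 in nhr-49. The spread is shared by all 8 libraries in these fits. With dispersions from the 4 N2 libraries alone, 303 of the 14334 genes were called in N2, 224 higher and 79 lower in replicate 3. A fit of 1 genotype alone leaves 1 residual degree of freedom. Without the condition terms that pair the libraries (no replicate block), 1 gene was called in nhr-49, vit-3. Each other count of list members called in nhr-49 is 0 in that fit. The fit kept genotype but not treatment, so differences between tBOOH-treated and untreated worms entered the spread. It cannot show what the pairing alone contributes. With library totals as the only scaling the split in nhr-49 was 158 higher and 221 lower, as that scaling moved the median of all genes by 0.23 on the log2 scale.

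Each pair of libraries was also described without a test, by the difference of log2 CPM, replicate 3 minus replicate 1. A difference above 1 was found for 15.3% of genes in tBOOH-treated nhr-49, 14.4% in untreated nhr-49, 8.96% in tBOOH-treated N2 and 5.23% in untreated N2 worms. A difference below -1 was found for 10.8%, 18.4%, 3.79% and 5.49% of genes in the same order of conditions. All 4 pairs moved up for 11.4% of genes and down for 11.1%. Across the 14334 genes the differences of the pairs correlated at r = 0.32 between treated and untreated nhr-49, 0.32 between tBOOH-treated nhr-49 and N2, 0.27 between untreated nhr-49 and N2, and 0.05 between treated and untreated N2, as a description of genes that share libraries' depth and scaling. The remaining combinations had r = 0.19 and -0.04, so the 4 pairs did not share 1 common shift over all genes.

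**Figure D1:**
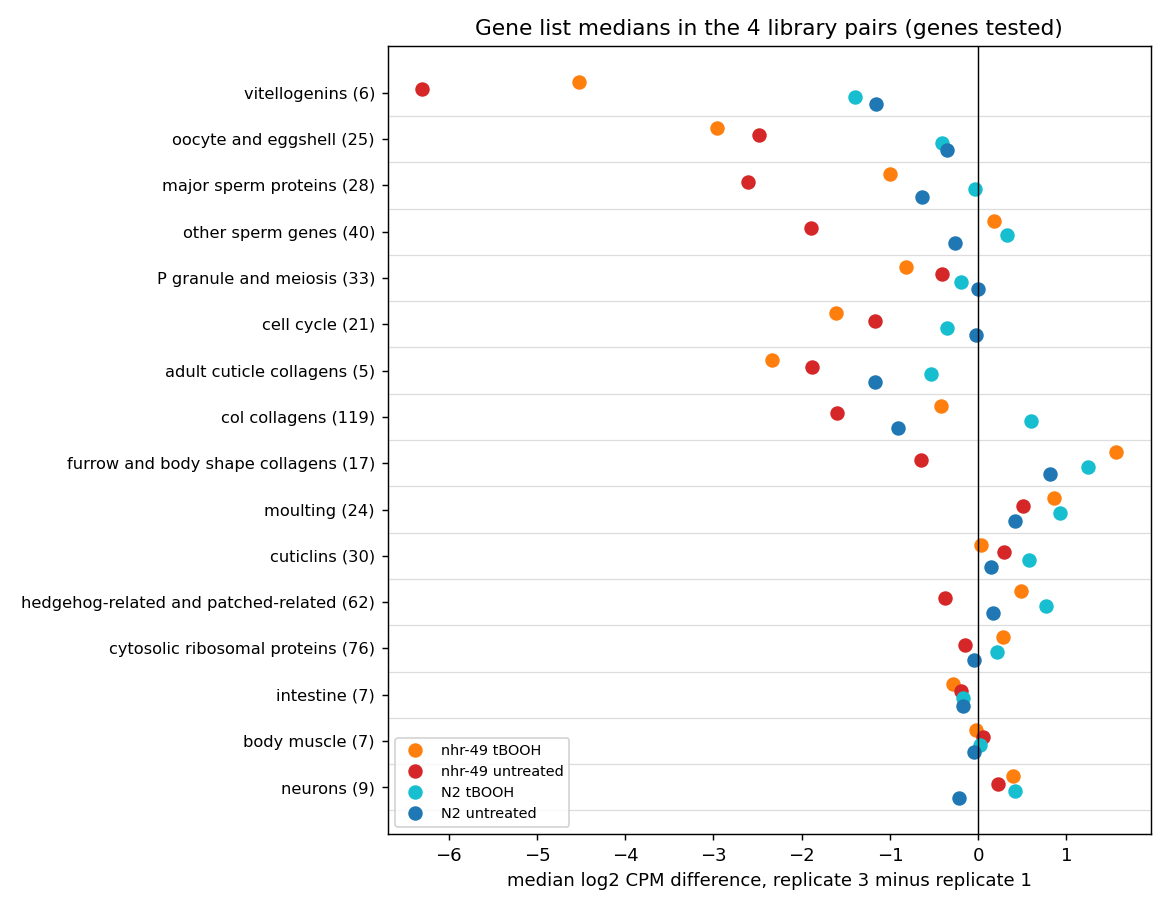
Median log2 CPM difference, replicate 3 minus replicate 1, over the tested genes of 16 gene lists (number of genes in brackets), with 1 point for each of the 4 library pairs. The vitellogenin points lie at -4.52 and -6.3 in the nhr-49 pairs and at -1.4 and -1.16 in the N2 pairs, while body muscle lies within 0.06 of 0 in all 4 pairs.

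Yolk protein transcripts were lower in replicate 3 in all 4 pairs, and by far more in nhr-49 than in N2. vit-6, on chromosome IV of the WBcel235 annotation, encodes a yolk protein and had 1670 CPM in replicate 3 against 30600 CPM in replicate 1 of tBOOH-treated nhr-49 worms. In untreated nhr-49 worms it had 407 CPM in replicate 3 against 27900 CPM in replicate 1. In N2 worms it had 18600 CPM against 38000 CPM with tBOOH and 10700 CPM against 22800 CPM without, again for replicate 3 against replicate 1. Both N2 replicate 3 libraries lay above both nhr-49 replicate 3 libraries, and all 4 replicate 1 libraries lay above every replicate 3 library. The fitted log2 fold change of vit-6 was -5.15 in nhr-49 (35.4-fold lower, DESeq2 SE 1.05, adjusted p = 0.00167) and -1.06 in N2 (adjusted p = 1).

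vit-2, a yolk protein gene on chromosome X, had 1470 and 315 CPM in the nhr-49 replicate 3 libraries with and without tBOOH, against 25000 and 20400 CPM in replicate 1. In N2 it had 13200 and 7120 CPM in replicate 3 against 25100 and 15700 CPM in replicate 1. The N2 pairs therefore differed by about the same factor with and without tBOOH, at log2 differences of -0.92 and -1.14. The nhr-49 pairs differed by -4.08 and -6.02. The fitted log2 fold change was -5.05 in nhr-49 (33.1-fold lower, SE 0.41, adjusted p = 0.00167) and -1.03 in N2.

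The other yolk genes followed the same order. vit-5 had 356 and 48 CPM in the nhr-49 replicate 3 libraries with and without tBOOH, against 10100 and 8420 CPM in replicate 1, and 7420 and 3280 CPM against 18400 and 7620 CPM in N2. vit-4 had 8.74 and 6.7 CPM in the nhr-49 replicate 3 libraries against 337 and 1130 CPM in replicate 1, and 357 and 700 CPM against 1300 and 1600 CPM in N2. vit-3 had 28.1 and 24.6 CPM against 1070 and 2270 CPM in nhr-49, and 665 and 947 CPM against 1880 and 2140 CPM in N2. For these 3 genes the replicate 3 libraries lay below the replicate 1 libraries of the same genotype, with no overlap. Their fitted values in nhr-49 were 69.2-fold (vit-5), 76.2-fold (vit-4) and 58.5-fold lower (vit-3), with adjusted p of 0.0024, 0.00167 and 0.00153. vit-1 had 29.1 and 31.6 CPM in the nhr-49 replicate 3 libraries against 291 and 911 CPM in replicate 1 (16.8-fold lower, adjusted p = 0.00225). For vit-1 and vit-4 the nhr-49 replicate 1 library with tBOOH, at 291 and 337 CPM, lay below both N2 replicate 3 libraries, at 319 and 781 CPM for vit-1 and 357 and 700 CPM for vit-4.

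All 6 vitellogenins were called lower in nhr-49, beside 2.09% of all genes tested, and all 6 had all 4 pair differences below 0, beside 11.1% of all genes. Every replicate 3 library lay below every replicate 1 library for 4 of the 6, beside 1.58% of all genes. The list's median fitted log2 fold change was -5.51 in nhr-49 and -1.3 in N2, and that of all genes tested was 0 and 0.01. With dispersions from the N2 libraries alone all 6 were called lower in N2 as well, beside 79 of the 14334 genes tested. Without pairing within condition (no replicate block), vit-3 kept its call in nhr-49 (adjusted p = 0.0437) and the others ranged from 0.0876 to 0.146, with log2 fold changes of -4.3 to -6.55 over the 6 genes. The counts may not separate vit-2, vit-3 and vit-4 from the overlapping genes C42D8.9, T27A10.8 and F59D8.3, as the use of strand was not stated.

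**Figure D2:**
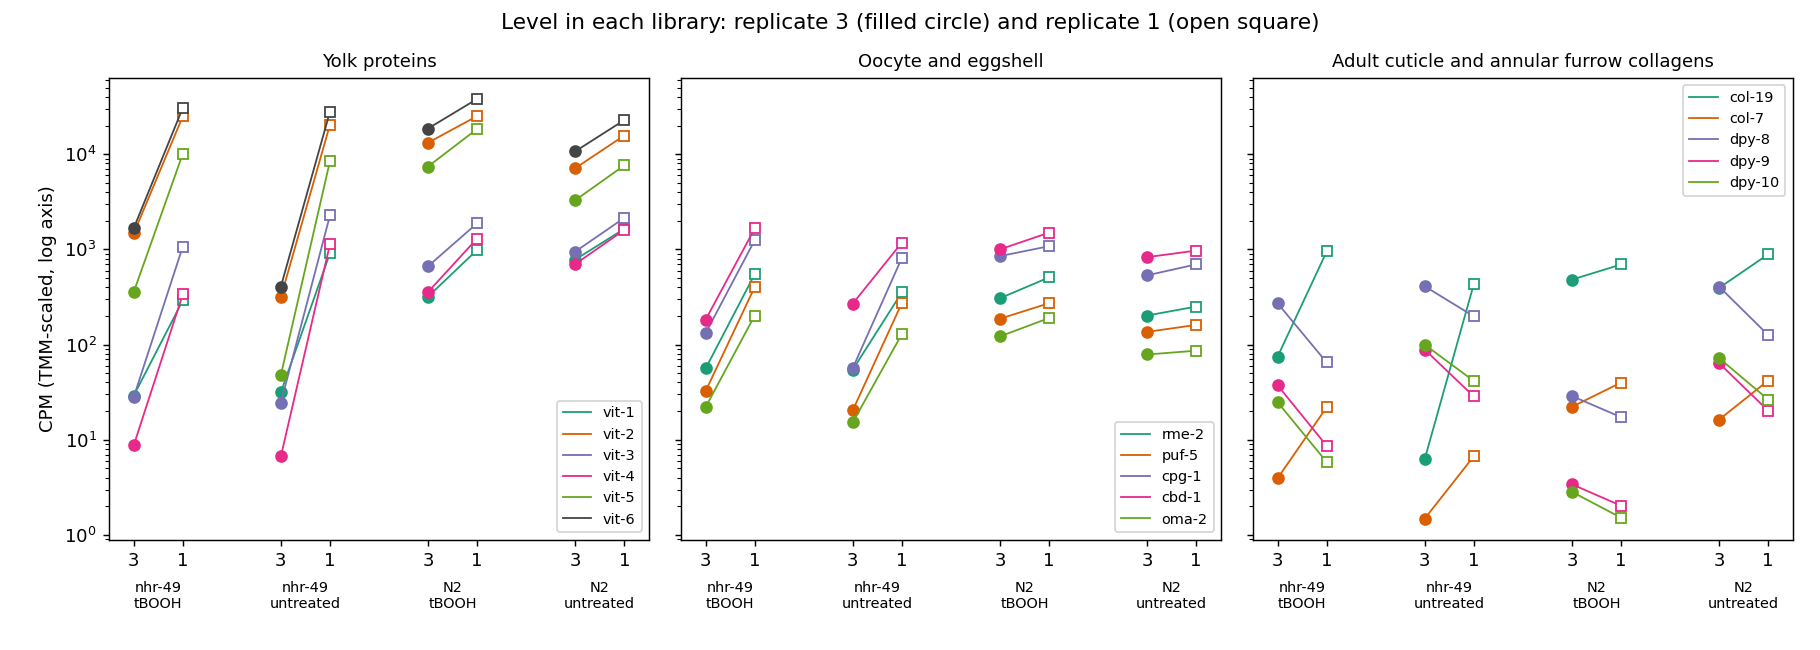
CPM on a log axis for yolk, oocyte and cuticle genes, with replicate 3 (filled circle) joined to replicate 1 (open square) of the same condition. The vit-6 points fall to 407 CPM in replicate 3 of untreated nhr-49 worms, and dpy-8, dpy-9 and dpy-10 run the other way, with replicate 3 above replicate 1 in each pair.

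Oocyte and eggshell transcripts were lower in replicate 3 of nhr-49, and differed by less in N2. None was called in N2. With dispersions from the N2 libraries alone 1 of 25 genes was called lower there, beside 79 of the 14334 genes tested. rme-2, which encodes the yolk receptor of oocytes, had 56.2 and 54.7 CPM in the nhr-49 replicate 3 libraries with and without tBOOH, against 550 and 354 CPM in replicate 1. In N2 it had 307 and 202 CPM in replicate 3 against 508 and 251 CPM in replicate 1. The nhr-49 replicate 3 libraries thus lay apart from all 6 others, and in N2 the replicates overlapped between treatments. The fitted log2 fold change of rme-2 was -3 in nhr-49 (7.99-fold lower, SE 0.34, adjusted p = 0.00173) and -0.52 in N2.

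cpg-1, a chondroitin proteoglycan of the eggshell, had 132 and 56.9 CPM in the nhr-49 replicate 3 libraries with and without tBOOH, against 1250 and 814 CPM in replicate 1, and 850 and 534 CPM against 1080 and 696 CPM in N2. puf-5, a PUF-family RNA-binding protein needed for oocyte formation, had 32.5 and 20.5 CPM against 403 and 274 CPM in nhr-49 and 187 and 136 CPM against 272 and 161 CPM in N2. Both genes were more than 10-fold lower in replicate 3 of nhr-49, at 11.6-fold for cpg-1 and 12.8-fold for puf-5 (adjusted p = 0.00153 each). nos-2, a Nanos-family regulator supplied by the mother to the embryo, had 17 counts and 1 count in the nhr-49 replicate 3 libraries with and without tBOOH, against 176 and 49 counts in replicate 1. Its N2 libraries held 86 and 32 counts in replicate 3 against 151 and 49 in replicate 1. The eggshell permeability barrier genes perm-2 and perm-4 were 14.4-fold and 12-fold lower in nhr-49 (adjusted p = 0.00316 and 0.00246), and nos-2 was 17.2-fold lower (adjusted p = 0.00621). nos-2 overlaps him-14, and perm-2 overlaps C44B12.6.

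Of the 25 oocyte and eggshell genes, 24 were called lower in nhr-49 and 0 higher, with fitted changes of 2.83-fold to 17.2-fold. The exception was mbk-2, a kinase of the oocyte-to-embryo transition, at a log2 fold change of -0.59 (adjusted p = 0.275). In nhr-49 both replicate 3 libraries lay below both replicate 1 libraries for all 25 genes, beside 20.6% of all genes tested. The pair medians were -2.96 and -2.48 in nhr-49 with and without tBOOH and -0.41 and -0.35 in N2. All 4 pairs were below 0 for 23 of the 25, beside 11.1% of all genes. In N2 the largest pair difference was that of perm-2, at -1.09 without tBOOH. Without the condition terms (no replicate block), a fit that left treatment in the spread, 0 of the 25 were called in nhr-49 at a list median of -2.86.

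Some genes outside the lists had the same direction. They were picked after their values were seen, so they are examples only and add no support. In nhr-49 the egg activation genes egg-4 and egg-5, whose products act at the oocyte surface, had log2 fold changes of -2.85 and -2.65 (adjusted p = 0.00358 and 0.00284). The eggshell proteoglycan gene cpg-3 was at -3.34 (adjusted p = 0.0025) and perm-1 at -2.63 (adjusted p = 0.011). mex-1, which is needed for the fate of early blastomeres, was at -3.04 (adjusted p = 0.00255), and meg-1, which encodes a P granule protein of the embryo, at -4.89 with 12 and 3 counts in replicate 3 against 324 and 64 counts in replicate 1. Of the 299 genes called lower, 82 were in any of the lists, beside 598 of the 14334 genes tested.

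Sperm transcripts were described in a pair of lists, and a difference between the lists was not tested. Major sperm proteins, the cytoskeletal and signalling proteins of sperm, summed to 657 and 304 CPM in the nhr-49 replicate 3 libraries with and without tBOOH, against 1460 and 1760 CPM in replicate 1. In N2 they summed to 1400 and 1290 CPM in replicate 3 against 1510 and 2000 CPM in replicate 1. The lowest library was therefore untreated nhr-49 replicate 3, and the tBOOH-treated N2 pair was nearly level. Of 28 genes, 8 were called lower in nhr-49 (2.09% of all genes tested) and 0 higher, at 2.55-fold to 6.2-fold, and both nhr-49 replicate 3 libraries lay below both replicate 1 libraries for all 28, beside 20.6% of all genes. The 8 calls became 4 with library totals as the only scaling, 18 with DESeq2 and 24 without the filter on low values. The pair medians were -1 and -2.61 in nhr-49 with and without tBOOH and -0.04 and -0.64 in N2. msp-57 had 4.99 and 5.95 CPM in the nhr-49 replicate 3 libraries against 27.6 and 42.5 CPM in replicate 1 (adjusted p = 0.0271). msp-57 went in opposite directions in N2, with 26.1 CPM in replicate 3 against 38.7 CPM in replicate 1 with tBOOH and 22.4 CPM against 10.4 CPM without. msp-36, msp-65, msp-50 and msp-76 were 5.7-fold, 5.28-fold, 5.12-fold and 3.92-fold lower in nhr-49 (adjusted p = 0.0184, 0.0342, 0.0186 and 0.0283). The msp genes are near-identical copies, so their reads could have been divided among them.

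Among 40 other sperm genes 0 were called in either direction in nhr-49 by edgeR, and 25 of the 40 had a difference below -1 in the untreated nhr-49 pair. Their pair medians were 0.18 and -1.89 in nhr-49 with and without tBOOH, and 0.33 and -0.26 in N2, so treated and untreated pairs differed in sign. spe-15, the myosin VI needed for sperm formation, had 63.7 and 41.7 CPM in the nhr-49 replicate 3 libraries against 86.9 and 108 CPM in replicate 1 (log2 fold change -0.9, adjusted p = 0.168). gsp-3, a sperm protein phosphatase, was at -0.81 (adjusted p = 0.217). fer-1, a protein of sperm membrane fusion, was at 0.38 (adjusted p = 0.473). The values of fer-1 may include reads of the overlapping genes F43G9.15 and F43G9.18, as the way of counting was not given.

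Genes of the general germline gave few calls, though more of them lay lower than higher in replicate 3 of nhr-49. In nhr-49, 2 of 33 P granule and meiosis genes were called lower (2.09% of all genes tested), cgh-1 and car-1, both components of germline RNA granules. cgh-1 had 195 and 320 CPM in the nhr-49 replicate 3 libraries with and without tBOOH, against 814 and 679 CPM in replicate 1 (2.98-fold lower, adjusted p = 0.029), and 602 and 581 CPM against 830 and 667 CPM in N2. car-1 was 2.69-fold lower (adjusted p = 0.0206). The list's median was -0.57 in nhr-49 and -0.1 in N2. Both nhr-49 replicate 3 libraries lay below both replicate 1 libraries for 20 of the 33 genes, beside 20.6% of all genes. They lay above them for 1, beside 2433 of the 14334 genes tested. All 4 pairs were below 0 for 13 of the 33, beside 11.1% of all genes, and above 0 for 3, beside 11.4%. The count called lower ranged from 2 to 11 over the alternatives that kept the pairing. Of 16 genes of sex determination and the sperm-to-oocyte switch, both nhr-49 replicate 3 libraries lay below both replicate 1 libraries for 11 and above them for 1. Over all genes, 20.6% lay below and 2433 of 14334 above. All 4 pairs were below 0 for 8 of the 16 and above 0 for 0, beside 11.1% and 11.4% of all genes. In nhr-49, 1 of the 16 was called lower, beside 2.09% of all genes, namely gld-1, a translational regulator that is required for oogenesis. gld-1 had 79.5 and 114 CPM in the nhr-49 replicate 3 libraries against 311 and 221 CPM in replicate 1, and 234 and 228 CPM against 310 and 246 CPM in N2 (log2 fold change in nhr-49 -1.46, adjusted p = 0.043). The gld-1 call was lost in 5 of the alternatives run: RLE normalization (adjusted p = 0.0508), library totals (0.0666), at least 10 counts in 2 libraries (0.0607), no replicate block (0.211) and leaving out the tBOOH-treated nhr-49 pair (0.0646). lin-41, in both the oocyte and the heterochronic list, is a TRIM-NHL protein of the heterochronic pathway that also acts in oocytes, and was called lower at 69.7 and 85.6 CPM in replicate 3 against 294 and 187 CPM in replicate 1 (adjusted p = 0.0313).

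Cell cycle transcripts were lower in replicate 3 of nhr-49. Of 21 genes 12 were called lower (2.09% of all genes tested) and 0 higher, and both nhr-49 replicate 3 libraries lay below both replicate 1 libraries for all 21, beside 20.6% of all genes. The count was 8 with library totals as the only scaling. The B-type cyclin gene cyb-3 had 41.6 and 35.7 CPM in the nhr-49 replicate 3 libraries with and without tBOOH, against 239 and 177 CPM in replicate 1 (5.33-fold lower, SE 0.35, adjusted p = 0.00254). In N2, cyb-3 had 186 and 115 CPM in replicate 3 against 193 and 146 CPM in replicate 1. The pair medians of the list were -1.61 and -1.17 in nhr-49 and -0.35 and -0.02 in N2. cyb-2.1 and cyb-2.2 were 8.26-fold and 6.88-fold lower (adjusted p = 0.00845 and 0.00623), and as close paralogs may share reads. The replication helicase gene mcm-7 was 3.03-fold lower and the centromeric histone gene hcp-3 was 3.07-fold lower (adjusted p = 0.0283 and 0.047), and these overlap F32D1.3 and F58A4.6. The hcp-3 call was lost with library totals (adjusted p = 0.0851), RLE normalization (0.053), at least 10 counts (0.0622), thinning (0.052) and dispersions from nhr-49 alone (0.0527). Among the members not called were the Aurora kinase genes air-1, at -0.71, and air-2, at -0.84. Of 32 histone genes 1 was called lower, a share near the 2.09% of all genes, namely his-67 (log2 fold change -1.66, adjusted p = 0.0127), and histone genes share near-identical sequence.

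Of 46 early embryo genes 8 passed the filter on low values, and 38 did not. Of the 8, 1 was called lower (2.09% of all genes), vet-2, at 8 counts and 1 count in the nhr-49 replicate 3 libraries with and without tBOOH, against 106 and 11 counts in replicate 1 (adjusted p = 0.024). In N2, vet-2 had 47 and 17 counts in replicate 3 against 58 and 5 in replicate 1.

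The adult cuticle collagens col-19, col-62 and col-7 were lower in replicate 3 in all 4 pairs. col-19, a collagen of the adult cuticle that is widely used as an adult marker, had 74.9 and 6.32 CPM in the nhr-49 replicate 3 libraries with and without tBOOH, against 951 and 433 CPM in replicate 1. In N2 it had 481 and 394 CPM in replicate 3 against 694 and 888 CPM in replicate 1. Only the untreated nhr-49 replicate 1 library lay below an N2 replicate 3 library, and the nhr-49 replicate 3 libraries were the lowest of all 8. The fitted log2 fold change of col-19 was -4.69 in nhr-49 (25.8-fold lower, SE 0.47, adjusted p = 0.00392) and -0.85 in N2. col-62 had 11 counts and 0 counts in the nhr-49 replicate 3 libraries against 91 and 41 counts in replicate 1 (adjusted p = 0.021), and col-7 was 5.18-fold lower (adjusted p = 0.0245). The col-7 call was lost without the tBOOH-treated nhr-49 pair (adjusted p = 0.0653) and with dispersions from nhr-49 alone (0.0591). The remaining members of that list, the strut collagens bli-1 and bli-2, ran differently: bli-1 had 350 CPM in replicate 3 against 99.2 CPM in replicate 1 of tBOOH-treated nhr-49 worms, and 241 CPM against 550 CPM in untreated nhr-49 worms. In N2, bli-1 had 64.4 and 962 CPM in replicate 3 with and without tBOOH, against 17.3 and 312 CPM in replicate 1.

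Of the 119 tested genes of the col family, 25 were called lower in replicate 3 of nhr-49 (2.09% of all genes tested) and 0 higher (0.607%), at fitted changes of 3.72-fold to 87.5-fold. col-143 had 14 counts and 1 count in the nhr-49 replicate 3 libraries with and without tBOOH, against 662 and 319 counts in replicate 1 (a fitted 87.5-fold lower, which rests on a library with 1 count, SE 0.59 on the log2 scale, adjusted p = 0.00153). In N2, col-143 had 611 and 816 counts in replicate 3 against 1663 and 1551 in replicate 1. The N2 pairs thus moved the same way by log2 differences of -1.28 and -1.19. col-119 had 53.9 and 4.09 CPM in the nhr-49 replicate 3 libraries against 969 and 376 CPM in replicate 1, and 495 and 372 CPM against 760 and 1050 CPM in N2. col-178 and col-119 were 27.1-fold and 34-fold lower in nhr-49 (adjusted p = 0.00167 and 0.0027). col-95 had 6 counts and 0 counts in the nhr-49 replicate 3 libraries with and without tBOOH, against 202 and 52 counts in replicate 1 (adjusted p = 0.00623). col-8 had 72 counts and 1 count against 915 and 219 counts in replicate 1 (adjusted p = 0.00638). For col-95 and col-8 the untreated nhr-49 replicate 3 library lay under the floor of 3 counts, and no fold is given. col-143 overlaps T15B7.15 and col-8 overlaps lgc-38.

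The collagen family as a whole did not move as 1 block. A pair difference above 1 was found for 13, 9, 55 and 5 of the 119 genes in tBOOH-treated nhr-49, untreated nhr-49, tBOOH-treated N2 and untreated N2 worms, and a difference below -1 for 53, 79, 13 and 53 genes. The pair medians were -0.42 and -1.6 in nhr-49 with and without tBOOH and 0.6 and -0.91 in N2, so the tBOOH-treated N2 pair ran against the other 3. Summed over the family, the tBOOH-treated N2 libraries were level, at 29800 CPM in replicate 3 and 29900 CPM in replicate 1. The untreated N2 libraries had 27200 CPM in replicate 3 against 49500 CPM in replicate 1, and nhr-49 worms 15800 and 11800 CPM against 38100 and 32400 CPM with and without tBOOH. Across the 119 genes the pair differences correlated at r = 0.68 between treated and untreated nhr-49, 0.67 between tBOOH-treated nhr-49 and N2, and 0.26 between treated and untreated N2, as a description. In 32 of the 119 genes all 4 pairs were below 0, beside 11.1% of all genes. With dispersions from the N2 libraries alone, 17 were called higher and 33 lower in N2, beside 224 and 79 of the 14334 genes tested.

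Of 6 collagens of the annular furrows, the circumferential grooves of the cuticle, 2 were called higher in replicate 3 of nhr-49, dpy-9 and dpy-10. dpy-9 had 37.3 and 88.5 CPM in the nhr-49 replicate 3 libraries with and without tBOOH, against 8.64 and 28.5 CPM in replicate 1, and 3.41 and 63.8 CPM against 2.03 and 20.2 CPM in N2. dpy-10 had 24.8 and 99.7 CPM against 5.84 and 41.4 CPM in nhr-49, and 2.84 and 72 CPM against 1.52 and 26.5 CPM in N2. Replicate 3 was the higher library in each of the 4 pairs for both genes, with levels below 4 CPM in tBOOH-treated N2 worms. The fitted changes in nhr-49 were 3.64-fold for dpy-9 (SE 0.46, adjusted p = 0.0252) and 3.1-fold for dpy-10 (SE 0.46, adjusted p = 0.0396), beside 0.607% of all genes called higher. dpy-10 overlaps T14B4.19, and its call was lost with at least 10 counts in 2 libraries (adjusted p = 0.0529). The other furrow genes were not called, at log2 fold changes of 1.55 for dpy-8 (adjusted p = 0.0538), 1.52 for dpy-3, 1.39 for dpy-7 and 1.26 for dpy-2. Over the 6 furrow genes the pair median was 1.9 and 1.18 in nhr-49 with and without tBOOH and 0.38 and 1.53 in N2. In the tBOOH-treated N2 pair 2 of the 6 were below 0, dpy-3 at -0.04 and dpy-7 at -0.67.

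The 11 other body shape collagens in the list of furrow and body shape collagens divided by library pair, a split of the list made after values were seen. All 11 were lower in replicate 3 of untreated nhr-49 worms, at a median of -1.06, while 10 of the 11 were higher in tBOOH-treated nhr-49 worms, at a median of 1.33. In N2 worms 10 and 7 of them were higher in replicate 3 with and without tBOOH, at medians of 1.68 and 0.73. dpy-13, a body shape collagen, had 1260 CPM in replicate 3 against 666 CPM in replicate 1 of tBOOH-treated nhr-49 worms, and 464 CPM against 1350 CPM in untreated nhr-49 worms. In N2, dpy-13 had 830 CPM in replicate 3 against 208 CPM in replicate 1 with tBOOH and 1380 CPM against 1400 CPM without. The summed level of the 11 genes was 5641 and 3144 CPM in replicate 3 against 2666 and 6779 CPM in replicate 1 of nhr-49 worms with and without tBOOH. dpy-14 was the exception that was lower in all 4 pairs, with 2 counts and 0 counts in the nhr-49 replicate 3 libraries against 43 and 27 counts in replicate 1 (14.2-fold lower with the replicate 3 libraries set to the floor of 3 counts each, adjusted p = 0.0494). The dpy-14 call was lost with library totals (adjusted p = 0.0686) and with at least 10 counts in 2 libraries (0.0672). Of the 17 genes of the list 2 were called higher (0.607% of all genes) and 1 lower (2.09%) in nhr-49. With dispersions from the N2 libraries alone, 13 of the 17 were called higher in N2, beside 224 of the 14334 genes tested.

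**Figure D3:**
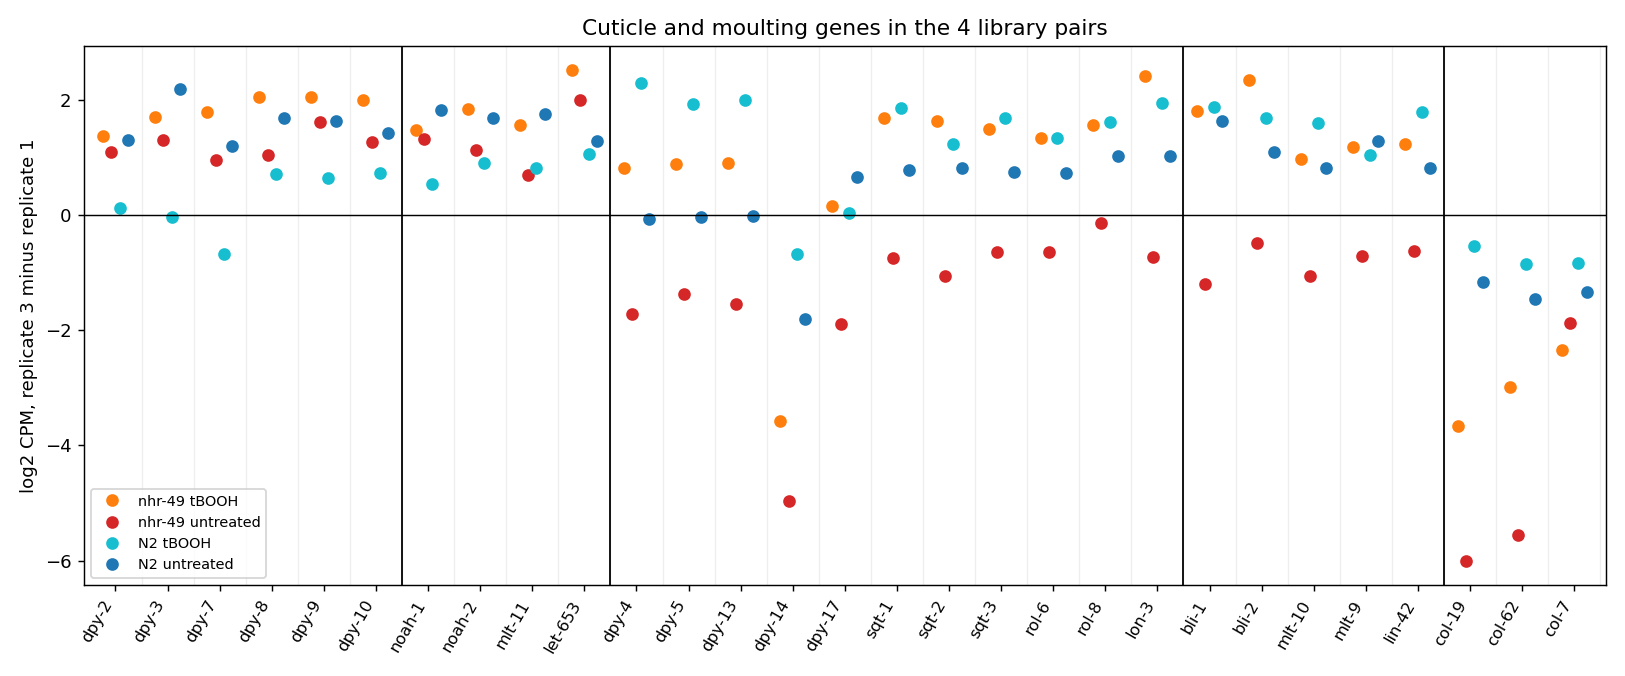
Log2 CPM difference, replicate 3 minus replicate 1, for cuticle and moulting genes, with 1 point for each library pair and vertical lines between annular furrow collagens, 4 moulting genes, the other body shape collagens, strut collagens with 3 more moulting genes, and adult collagens. In the body shape group the untreated nhr-49 points lie below 0 for all 11 genes, and the adult collagens col-19, col-62 and col-7 lie below 0 in all 4 pairs. The strut collagens bli-1 and bli-2 belong to the same list of 5 adult cuticle collagens but are drawn apart. They lie above 1 in every pair except untreated nhr-49.

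Among 24 moulting genes 2 were called higher in replicate 3 of nhr-49 (0.607% of all genes tested) and 0 lower. In N2, 7 of the 24 were called higher with dispersions from the N2 libraries alone, beside 224 of the 14334 genes tested. let-653, which encodes a protein of the luminal matrix of epithelia, had 10.2 and 56.9 CPM in the nhr-49 replicate 3 libraries with and without tBOOH, against 1.4 and 14 CPM in replicate 1 (5.04-fold, adjusted p = 0.0239). noah-2, a zona pellucida domain protein of the apical matrix, had 224 and 528 CPM against 62.3 and 242 CPM in nhr-49, and 27.5 and 403 CPM against 14.4 and 125 CPM in N2 (2.8-fold in nhr-49, adjusted p = 0.0396, or 0.055 with at least 10 counts in 2 libraries). Replicate 3 was the higher library in all 4 pairs for both genes. noah-1 (log2 fold change 1.4, adjusted p = 0.0594) and mlt-11, a protease inhibitor of moulting (1.13, adjusted p = 0.105), were above 0 in all 4 pairs without passing the threshold. The list's pair medians were 0.86 and 0.51 in nhr-49 and 0.93 and 0.42 in N2. mlt-10, mlt-9 and lin-42, the worm homologue of Period, were below 0 in the untreated nhr-49 pair alone, at -1.05, -0.71 and -0.62, and between 0.81 and 1.79 in the other 3 pairs.

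Further cuticle and signalling lists were split. Of 30 cuticlins 0 were called in nhr-49, and their pair medians lay between 0.03 and 0.58. cut-2 had 160 and 136 CPM in the nhr-49 replicate 3 libraries with and without tBOOH, against 76.4 and 323 CPM in replicate 1, so its pairs went in opposite directions, and its sign also turned with library totals as the only scaling, to 0.14 (log2 fold change -0.09, adjusted p = 0.966). cut-4 was at -1.35 (adjusted p = 0.125) and cutl-15 at -0.45 (adjusted p = 0.674). Of 62 hedgehog-related and patched-related genes, 2 were called higher (0.607% of all genes tested) and 1 lower (2.09%). wrt-10 had 54.3 and 344 CPM in the nhr-49 replicate 3 libraries against 21 and 107 CPM in replicate 1 (2.89-fold, adjusted p = 0.0465), and ptr-15, which overlaps mec-1, was 3.68-fold higher (adjusted p = 0.0454). The wrt-10 and ptr-15 calls were lost with at least 10 counts in 2 libraries (adjusted p = 0.066 and 0.0543), and that of ptr-15 also without the untreated nhr-49 pair (0.056). ptr-2 was 2.48-fold lower (adjusted p = 0.0282, or 0.0629 with dispersions from nhr-49 alone). With dispersions from the N2 libraries alone 16 of the 62 were called higher in N2, beside 224 of the 14334 genes tested.

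Of 11 heterochronic genes, which time the larval stages, lin-41 was called lower (2.09% of all genes tested) and 0 were called higher (0.607%). mab-10, a cofactor of lin-29 in the larval-to-adult switch, was above 0 in all 4 pairs, at 1.17 and 1.3 in nhr-49 and 0.56 and 1.16 in N2 (fitted log2 fold change in nhr-49 1.24, adjusted p = 0.0503). lin-29 itself, the zinc finger factor of that switch, was at 1.15 in nhr-49 (adjusted p = 0.107). Of 15 vulva and somatic gonad genes 1 was called higher, against the same 0.607% of all genes, the Fat-like cadherin gene cdh-3, at 47.4 and 136 CPM in the nhr-49 replicate 3 libraries with and without tBOOH, against 20.1 and 31.6 CPM in replicate 1, and 21.6 and 34.9 CPM against 16.6 and 20.2 CPM in N2 (3.18-fold in nhr-49, adjusted p = 0.0316).

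Tissue and reference genes gave few calls in nhr-49: 0 of 7 intestine, 0 of 7 body muscle, 0 of 5 pharynx, 0 of 5 epidermis, 0 of 76 cytosolic ribosomal protein and 0 of 4 qPCR reference genes. Medians of their fitted log2 fold changes lay between -0.3 for intestine and 0.42 for epidermis. unc-54, the body muscle myosin heavy chain, had 7140 and 10300 CPM in the nhr-49 replicate 3 libraries with and without tBOOH, against 8570 and 10300 CPM in replicate 1. Among markers of the intestine, the tissue that makes yolk, asp-1 was at -0.3 (adjusted p = 0.541), act-5 at -0.79 (adjusted p = 0.35) and ifb-2 at -0.39 (adjusted p = 0.434) in nhr-49. rpl-3, rpl-6 and rps-0 of the ribosome lay between -0.25 and -0.06, and tba-1, pmp-3 and cdc-42 between -0.43 and -0.04. Body muscle genes unc-15 and unc-22 were at -0.15 and -0.25, the pharyngeal genes myo-1, myo-2 and pha-4 at 0.03, -0.16 and 0.3, and the epidermal genes lin-26, elt-3 and che-14 at -0.82, -0.01 and 0.52. Some of these values average nhr-49 pairs of opposite sign. With and without tBOOH, myo-1 differed by -0.79 and 0.85, myo-2 by -1.07 and 0.75, and unc-22 by -0.94 and 0.45. For pha-4 both pairs were above 0, at 0.23 and 0.38. The pharynx pair medians in nhr-49 were -0.79 and 0.57, and 2 of the 5 genes lay below -1 with tBOOH. Of 9 neuron genes 1 was called higher (0.607% of all genes), unc-64, a syntaxin, which overlaps set-25 and had 103 and 83.7 CPM in the nhr-49 replicate 3 libraries against 43.2 and 35.2 CPM in replicate 1 (2.37-fold, adjusted p = 0.0383, or 0.0897 with dispersions from nhr-49 alone).

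Outside the lists, the genes with the largest calls higher in replicate 3 of nhr-49 were bus-18, C03G6.5, dpr-1, F57H12.6, C15F1.2, nas-4, F10B5.3, Y41G9A.5, nhr-107 and cuti-1. C15F1.2 had 70.3 and 150 CPM in the nhr-49 replicate 3 libraries with and without tBOOH, against 8.87 and 19.2 CPM in replicate 1 (7.85-fold, adjusted p = 0.00329), and 8.52 and 62.3 CPM against 4.4 and 15 CPM in N2. F57H12.6 was 9.07-fold higher (adjusted p = 0.00329) and cuti-1, an epithelial protein, 5.63-fold higher (adjusted p = 0.00628). bus-18, an acyltransferase gene that affects surface properties of the cuticle, had 85 and 36 counts in the nhr-49 replicate 3 libraries against 7 and 3 counts in replicate 1 (9.73-fold, adjusted p = 0.0316). C03G6.5, Y41G9A.5 and nhr-107 were 9.35-fold, 6.98-fold and 6.42-fold higher (adjusted p = 0.0156, 0.0127 and 0.043), and nas-4 and F10B5.3, which overlap C05D11.5 and F10B5.2, were 7.48-fold and 7.32-fold higher (adjusted p = 0.047 and 0.0383). dpr-1 had 72 and 63 counts in the nhr-49 replicate 3 libraries against 8 and 4 counts in replicate 1 (9.21-fold, adjusted p = 0.043), and 0 counts in all 4 N2 libraries, which allows up to 0.508 to 0.69 CPM. Its DESeq2 SE of 3.8 exceeded the fitted log2 fold change of 3.2.

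With genes under 20 counts in either replicate 1 library left out, the largest calls lower in replicate 3 of nhr-49 were led by col-143. By fitted change, it was followed by vit-4, vit-5, vit-3, Y62H9A.3, ZK829.9, col-95, dpy-14, vit-6 and col-119. Y62H9A.3 had 2 counts and 0 counts in the nhr-49 replicate 3 libraries with and without tBOOH, against 74 and 27 counts in replicate 1 (18.6-fold lower with replicate 3 set to the floor, adjusted p = 0.00284), and 118 and 100 counts against 248 and 126 counts in N2. ZK829.9, which overlaps unc-22, had 2 counts and 0 counts in the nhr-49 replicate 3 libraries against 64 and 30 counts in replicate 1 (adjusted p = 0.0138). Among the genes left out, C17E7.4 had a larger fitted change than col-143, with 1 count and 0 counts in replicate 3 against 109 and 16 counts in replicate 1. Calls lower in nhr-49 were spread over all 6 chromosomes, at 1.85% to 2.41% of tested genes on each. Calls higher were 0.0959% of tested genes on chromosome I (2 of 2086) and 0.563% to 1.02% on the others.

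In the fit over all 4 conditions the lowest p-values among genes whose pairs all moved the same way belonged to lpr-3, lpr-5, F01G10.9, clec-180 and F44E2.4. lpr-3, a lipocalin-related protein of the apical matrix, had 102 and 371 CPM in the nhr-49 replicate 3 libraries with and without tBOOH, against 32.2 and 178 CPM in replicate 1, and 11.7 and 301 CPM against 3.89 and 93.9 CPM in N2. Replicate 3 was the higher library in each pair, and the levels differed by treatment more than by replicate in N2. The log2 fold changes over the 4 conditions were 1.49 for lpr-3, 1.56 for lpr-5, 1.97 for F01G10.9, 1.7 for clec-180 and 1.22 for F44E2.4, with no call at the threshold. In nhr-49 alone all 5 were called higher (adjusted p = 0.0319, 0.0192, 0.0115, 0.043 and 0.0473). lpr-3 overlaps C09F12.6 and F01G10.9 overlaps daf-14.

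Whether the replicate contrast differed between the genotypes was tested as the nhr-49 contrast minus the N2 contrast. The test called 29 genes, all with a more negative change in nhr-49 (0.202% of genes tested), and DESeq2 called 108 with a more negative and 2 with a more positive change. All 29 were also called lower in nhr-49. They held 4 vitellogenins, 7 of the 25 oocyte and eggshell genes and 2 of the 119 col genes, or 13 genes in any list. For vit-3 the contrast differed by a log2 fold change of -4.53 (SE 0.52, adjusted p = 0.0347), and for cpg-1 by -3.17 (SE 0.46, adjusted p = 0.0347). Those not called included vit-5 (adjusted p = 0.0546), rme-2 (-2.48, adjusted p = 0.0541) and col-19 (-3.84, adjusted p = 0.0851). Of the 16 genes in no list, meg-1 differed by -4.36 (adjusted p = 0.037) and C39D10.7, with 439 and 118 counts in the nhr-49 replicate 3 libraries against 5342 and 1710 counts in replicate 1, by -3.18 (adjusted p = 0.0347). The count of 29 depends on the settings: it was 0 with library totals as the only scaling, 0 with a filter of at least 10 counts in 2 libraries, 0 without pairing within condition, and 67 to 840 when 1 pair of libraries was left out.

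**Figure D4:**
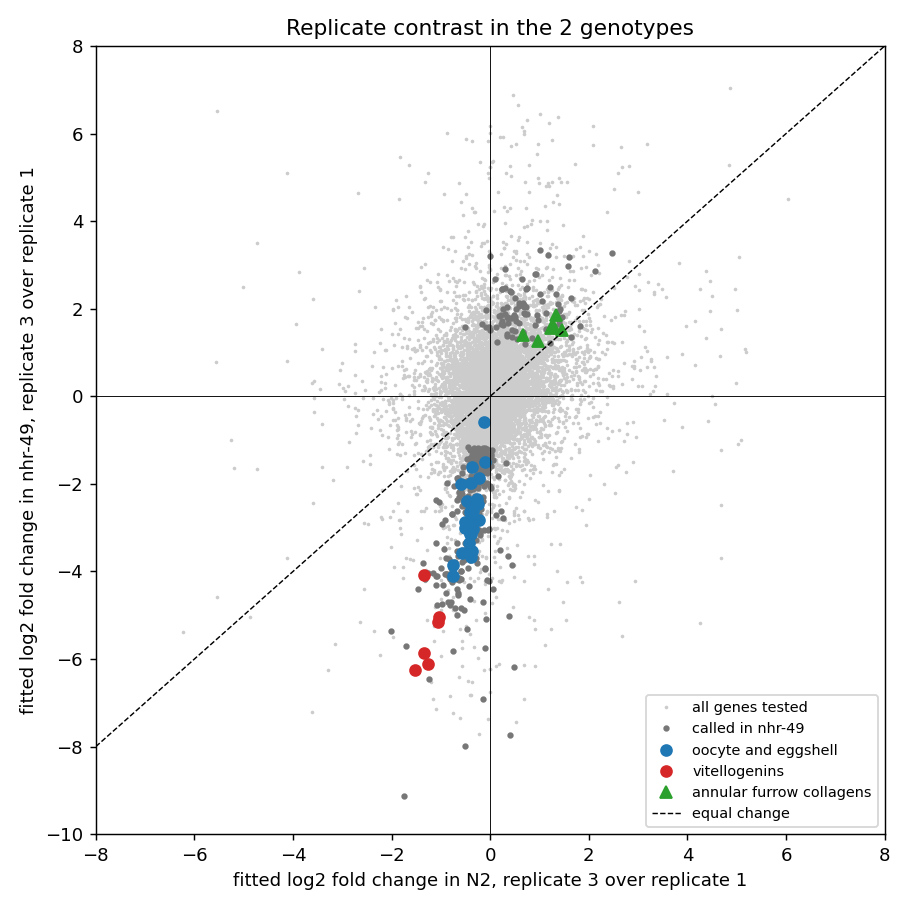
Fitted log2 fold change of replicate 3 over replicate 1 in nhr-49 (vertical axis) against N2 (horizontal axis) for the 14334 genes tested, with the dashed line at equal change. Vitellogenins lie between -4.07 and -6.25 in nhr-49 and between -1.03 and -1.53 in N2, while the 6 annular furrow collagens lie above 0 in both genotypes.

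Genes called in nhr-49 mostly kept their direction in the N2 pairs, without a call there. Of the 299 genes called lower in nhr-49, 236 were below 0 in both N2 pairs, beside 3509 of the 14334 genes tested. Of the 87 called higher, 75 were above 0 in both N2 pairs, beside 3687 of all genes tested. N2 and nhr-49 share no libraries in these pairs, but the calls come from a fit over all 8 libraries. In that fit N2 pairs that agree lower the spread, so called genes and all genes are not compared on equal terms.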

How the data were processed

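RNA of whole L4 worms was depleted of ribosomal RNA and sequenced on a NextSeq 500. Per the study's methods, single-end reads were aligned to ce10 with STAR, although the labels describe paired-end reads. The counting program, annotation and use of strand are not given in the sources used here. The deposited counts are whole reads for each of 42048 gene symbols, without normalization, and the authors' CPM table was not used. The label of the untreated N2 replicate 1 library names another catalogue number for the cDNA kit.

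The fits used edgeR 4.0.16 (R 4.3.3), with DESeq2 1.42.0 for standard errors and as an alternative. The filter was a CPM above 1 in 2 or more libraries (14334 genes), TMM factors were computed, and the quasi-likelihood test of edgeR was run with condition as a term and a replicate coefficient over all conditions (3 residual degrees of freedom) or for each genotype (2). Adjusted p-values are Benjamini-Hochberg values over the genes kept. Pair differences are of log2 CPM with a prior count of 2. Totals were 2157766 to 5852727 counts, and ribosomal RNA was 0.357% to 3.17% of them. The scripts were tested on simulated data. Gene identifiers, chromosomes and overlaps come from WBcel235, another build, matched by symbol for 12682 of the genes kept, so no coordinates are given.

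The members and the gene lists were chosen with earlier results of these data known. Named genes are the 6 vitellogenins, up to 5 members of each list in each direction with the largest change among those called (otherwise the 3 with the most counts), the 10 largest calls in each direction in nhr-49 with both pairs alike and no fewer than 20 counts in either higher library, and the 5 lowest p over 4 conditions. Genes named after their values were seen are egg-4, egg-5, cpg-3, perm-1, mex-1, meg-1, the uncalled members of lists, and genes of the genotype test. The pair differences of conditions correlated at -0.04 to 0.32, and whether a shared replicate number marks a shared origin was not tested.

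Alternatives were RLE normalization, library totals, no filter, at least 10 counts in 2 libraries, DESeq2, the likelihood ratio test, no replicate block, thinning to the smallest total, leaving out each pair, dispersions from 1 genotype, and a prior count of 5. With no replicate block the condition terms were dropped, so treatment differences entered the spread. Leaving vitellogenins out of totals and factors was added after seeing the data.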

Additional observations from a re-analysis of the deposited data

Results flagged for a closer look

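The test of the difference between genotypes picked out 29 genes, each with a replicate 3 against replicate 1 change more negative in nhr-49 than in N2 worms. As log2 differences, nhr-49 minus N2, the list members among them were col-143 (-5.22) and col-178 (-3.69) of the collagens, vit-2 (-4.01), vit-3 (-4.53), vit-4 (-4.73) and vit-6 (-4.09) of the yolk proteins, and cpg-1 (-3.17), cpg-2 (-2.72), egg-1 (-2.89), oma-2 (-2.75), pos-1 (-2.68), puf-5 (-3.29) and spn-4 (-2.61) of the oocyte and eggshell genes. Groups of 2 libraries are too small for a check for outlying samples.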

How the results depend on the processing

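In nhr-49 the 386 calls became 388 with RLE normalization, 379 with library totals, 305 with at least 10 counts in 2 libraries, 564 with DESeq2, 436 after thinning, 390 with dispersions from nhr-49 alone and 378 without vitellogenin counts in totals and factors. They became 810 without a filter, 1145 with the likelihood ratio test, 1 with no replicate block (unpaired), and 645 to 1769 when 1 library pair was left out, the highest without the untreated nhr-49 pair. Library totals moved the median of all genes to 0.23 in nhr-49 and 0.16 over 4 conditions, and the calls to 158 higher and 221 lower, against 87 and 299. The 29 calls of the genotype test became 0 with library totals, 0 with at least 10 counts, 0 with no replicate block (unpaired), 143 without a filter, 110 with DESeq2, 215 with the likelihood ratio test, 61 after thinning and 67 to 840 when a pair was left out, the highest without the tBOOH-treated nhr-49 pair. Over 4 conditions the 0 calls became 278 without a filter, 227 with DESeq2, 326 with the likelihood ratio test and 0 to 77 when a pair was left out, the highest without the tBOOH-treated N2 pair. In N2 the 0 calls became 4 with the likelihood ratio test, 303 with dispersions from N2 and 0 to 308 when a pair was left out, the highest without the untreated nhr-49 pair. With a genotype's pair left out, its contrast rests on 1 pair and borrows the spread of the others. With a prior count of 5, pair differences beyond 1 fell to 1053 genes in tBOOH-treated N2 worms, against 1827, and to 860 in untreated N2 worms, against 1537. Of the genes named, cut-2 turned to 1.13 (adjusted p = 0.00567) in edgeR's test without the untreated nhr-49 pair, and to -1.2 (adjusted p = 0.0369) without the tBOOH-treated one, against -0.09. Causes were not tested. Of 62 named genes called in nhr-49, 61 lost the call with no replicate block (all but vit-3) and 14 with at least 10 counts. Depth limits genes near 3 counts, or 0.508 to 1.55 CPM.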
